A study of Homo sapiens with 7 samples.

Results

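Isolated sites of a count table made for the fusion protein PAX3-FOXO1 are described here. They are sites with no other site of the same table within 100 kb on either side of the same chromosome. Whether the fusion binds at each of them was not tested. The isolated sites were chosen by position alone, with chromosome Y left out. A first or last site of a chromosome needed only its 1 gap. Of the 5782 sites, 2426 (42.0%) met this rule. They lay on 23 chromosomes, 2389 of them between 2 neighbours and 37 as the first or last site of a chromosome. Gaps were measured within this table, so a bound place that is not in it does not count as a neighbour.

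The values were raw CUT&RUN read counts in Rh4 cells, an established rhabdomyosarcoma line. The libraries used here were crosslinked and made with an antibody against HA from cells whose PAX3-FOXO1 carries an FKBP degron, and 2 came from cells given 500 nM dTAG47 for 2 h, 2 from cells given 500 nM dTAG47 for 4 h and 2 from DMSO controls. dTAG47 is a small molecule that recruits an E3 ubiquitin ligase to the FKBP degron, so that the fused protein is degraded. The degron is present in the DMSO cells too, and the labels do not say whether the tagged cells are 1 clone.

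PAX3-FOXO1 joins the DNA-binding domains of PAX3, a factor of early muscle and neural crest development, to the activation domain of FOXO1. It is the driver of fusion-positive rhabdomyosarcoma and is known to bind mostly at enhancers away from promoters, often beside the myogenic factors MYOD1 and MYOG and often in clusters that form super-enhancers. Such clusters are not mapped here, so an isolated site of this table may still lie in one. In CUT&RUN a nuclease tethered to the bound antibody cuts out the DNA beneath the tagged protein, and the released fragments are sequenced.

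Total counts over all sites ran from 110440 to 380057 per library. The 4 h columns A and B differed by no more than the sampling noise, also over the isolated sites (p = 0.199 in a chi-square test over 2338 sites, with 1.02 per degree of freedom), so they count as 1 sample in means and n. The same measure was 1.61 for the 2 h pair and 1.69 for the DMSO pair at the isolated sites. Separate cultures are not mentioned in the labels; p-values therefore rest on the spread among these libraries alone, and that spread may be technical. How the authors chose the sites is not given in the sources used here, and choosing them by DMSO signal would by itself favour lower treated counts.

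The isolated sites were slightly weaker than the table as a whole, and the distance to the nearest site varied widely. The nearest neighbour was 256 kb away at the median isolated site, with quartiles of 160 kb and 486 kb, against 68.3 kb over all sites. There were 888 members with a nearest site 100 to 200 kb away, 946 at 200 to 500 kb, 382 at 500 kb to 1 Mb and 210 beyond 1 Mb. The isolated sites made up between 31.4% of the sites on chromosome 20 and 55.7% on chromosome 19, and 55.2% on chromosome X. Just inside the limit were chr15:63120544-63120944 and chr15:63220960-63221360, which are each other's neighbours at 100016 bases. Just outside it were chr5:142186553-142186953 and chr5:142286681-142287081, with 99.7 kb between them.

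At the median isolated site there were 24 (A) and 11 (B) reads at 2 h, 15 (A) and 16 (B) at 4 h, and 25 (A) and 43 (B) with DMSO. The treated medians all lay below both DMSO medians, although the 2 h library A was within 1 read of the DMSO library A. The median of the mean DMSO count was 34 reads at the isolated sites and 38 over all sites. Of the 2426 members, 88 (3.63%) were removed by the filter on low counts, against 3.58% of all sites, and 2338 were tested.

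**Figure D1:**
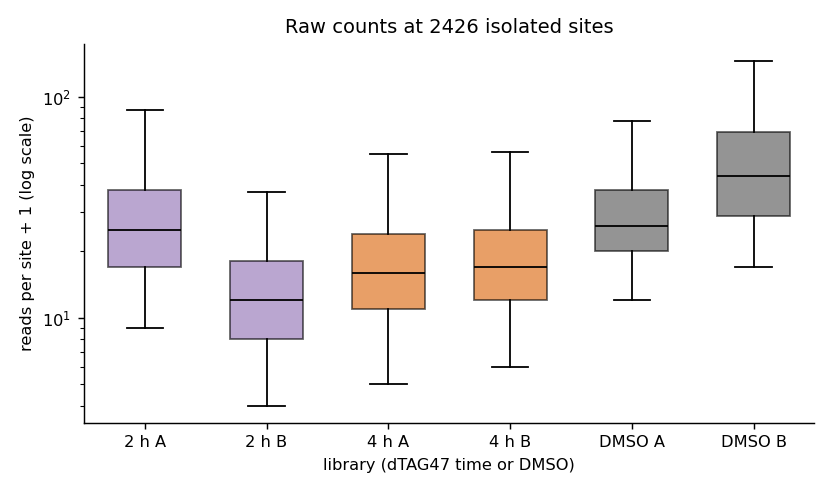
Raw reads per site plus 1 (log scale) at the 2426 isolated sites in each library; boxes give quartiles and medians, whiskers the 5th and 95th percentiles. The DMSO library B sits highest with a median of 43 reads and the 2 h library B lowest with 11, while the 2 h library A (24) is beside the DMSO library A (25).

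The isolated sites were weaker than sites with close neighbours. All tested sites were ranked by their mean count in the 6 libraries and cut into 3 classes of equal size, and 40.7% of the 2338 isolated sites fell in the weakest class, 33.4% in the middle and 26.0% in the strongest. Of the 786 tested sites within 10 kb of another, 20.1% were in the weakest class and 50.6% in the strongest. Of the 2432 tested sites with a nearest site 10 to 100 kb away, 30.3% were in the weakest and 35.03% in the strongest. This ordering is a description of the table, with no test. Within the isolated sites, strength changed little with distance: the median of the mean DMSO count was 36 reads at 100 to 200 kb, 35 at 200 to 500 kb, 33 at 500 kb to 1 Mb and 34.3 beyond 1 Mb, among the tested members.

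**Figure D2:**
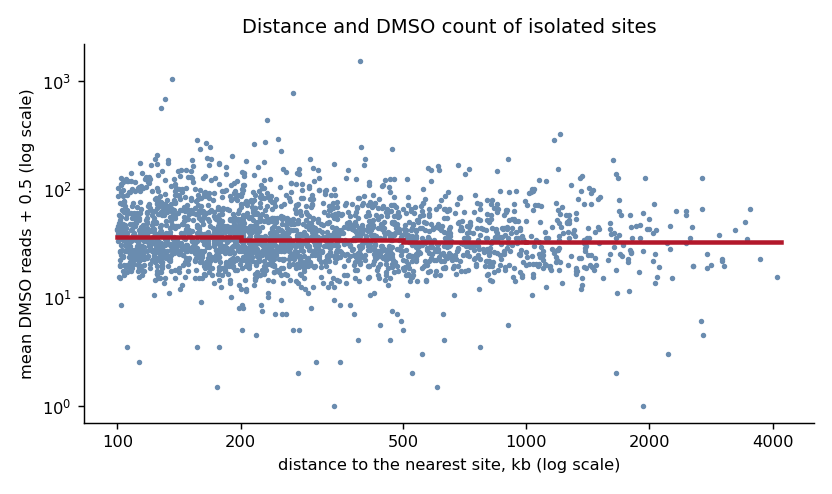
Mean DMSO reads plus 0.5 (log scale) against the distance to the nearest site in kb (log scale), 1 point per isolated site; red bars are the medians of the 4 distance classes. The medians form a nearly level line from 100 kb to beyond 1 Mb, and the 5 members above 500 reads all lie nearer than 400 kb.

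The first comparison asked how much HA signal the isolated sites held after dTAG47 was given. Together they held 60408 ± 30577 reads after 2 h (SD, n = 2), 54739 after 4 h (n = 1) and 111542 ± 41241 with DMSO (SD, n = 2). The single totals were 82029 and 38787 at 2 h, 53692 and 55785 at 4 h, and 82380 and 140704 with DMSO. As a percentage of the DMSO mean this was 54.2% at 2 h and 49.1% at 4 h, against 55.9% and 50.9% over all sites. Neither 4 h total reached a DMSO total, while the 2 h total A nearly equalled the DMSO total A, so the 2 h difference was within the spread between libraries.

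The share of all site reads that came from isolated sites was nearly constant. It was 35.9% and 35.1% at 2 h, 35.5% and 35.6% at 4 h, and 36.4% and 37.0% with DMSO (Wilson 95% intervals within 0.282 percentage points of each value, for counting error only). Every treated library lay below both DMSO libraries, by about 1 percentage point. The same order held without the 20 sites with the highest mean count, 7 of them isolated: 36.5% and 36.1% at 2 h, 36.3% and 36.4% at 4 h, and 37.0% and 37.4% with DMSO. The sites 10 to 100 kb from another also held a lower share at 4 h, and by more, with 39.4% and 39.7% of the reads at 4 h against 41.4% and 43.8% with DMSO. The sites within 10 kb of another held a higher one, with 24.9% and 24.5% at 4 h against 22.0% and 19.1% with DMSO. No test was made of these shares.

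Site by site, raw counts were lower after treatment almost throughout the isolated set. Raw counts carry the sequencing depth of each library as well as its signal, and these cannot be told apart here. At the isolated sites the DMSO library B alone held 1.71 times the reads of A. Of the 2338 tested isolated sites, 98.1% had a lower fitted count at 4 h and 98.0% at 2 h than with DMSO, against 97.8% and 97.4% of all tested sites. The median isolated site had a raw log2 change of −1.10 at 4 h (quartiles −1.47 and −0.78), a 2.14-fold lower count. At 2 h it was −0.96 (quartiles −1.27 and −0.67), a 1.94-fold lower count. Over all tested sites the medians were −1.08 and −0.93. Without the DMSO library B the median of the isolated sites was −0.69 at 4 h and −0.51 at 2 h, and without the 2 h library A it was −1.66 at 2 h, and without the 2 h library B −0.50.

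How far a site lay from its nearest neighbour made little difference to its raw change. In raw log2 terms the median change at 4 h was −1.10 at 100 to 200 kb, −1.10 at 200 to 500 kb, −1.10 at 500 kb to 1 Mb and −1.10 beyond 1 Mb. It was −1.09 at the sites 10 to 100 kb from another and −0.998 at those within 10 kb. At 2 h the 4 classes of isolated sites had medians between −0.97 and −0.95. Between the 3 classes of strength it differed little too: the isolated sites of the weakest, middle and strongest class had medians of −1.09, −1.12 and −1.08 at 4 h. Within the strongest class it was nearer 0 at the 64 sites with a mean count of at least 100, with a median of −0.65. That mean includes the treated libraries, so sites that kept reads reach it more easily. Across the 23 chromosomes the median of the isolated sites at 4 h ran from −1.31 on chromosome X to −0.90 on chromosome 17.

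**Figure D3:**
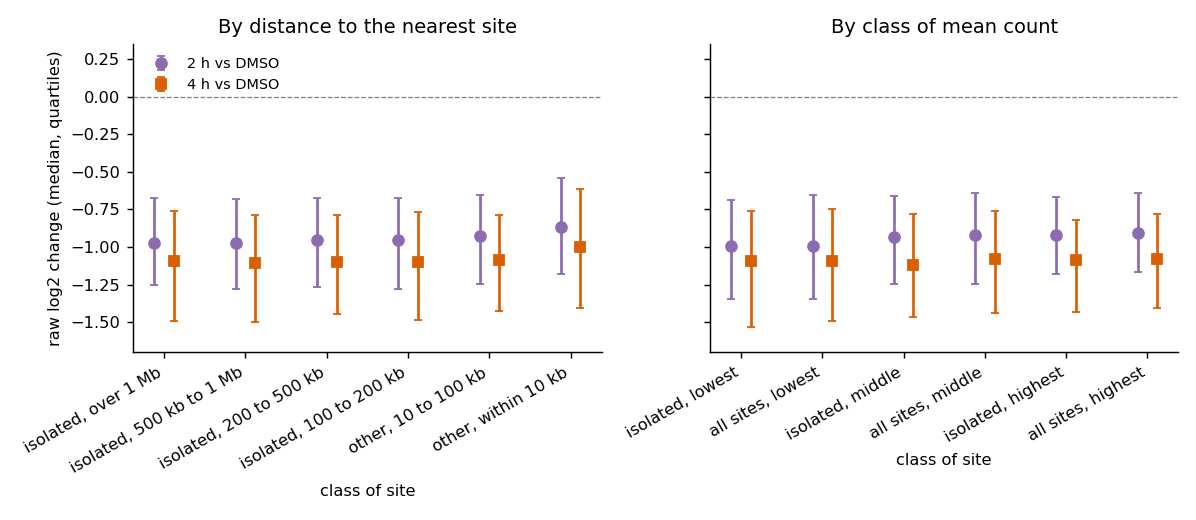
Median raw log2 change with quartile bars against DMSO at 2 h (purple circles) and 4 h (orange squares), by distance to the nearest site (left) and by class of mean count (right). The 4 classes of isolated sites share a median of about −1.10 at 4 h, and the sites within 10 kb of another sit slightly higher at −0.998.

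Called on raw counts with all 6 libraries, a small part of the isolated sites fell and none rose. At 4 h 165 of 2338 isolated sites fell (7.06%; adjusted p under 0.05 by Benjamini-Hochberg in edgeR's quasi-likelihood fit), against 6.19% of all tested sites. At 2 h 24 fell (1.03%), against 1.04% of all. No isolated site rose at either time (0 in edgeR, DESeq2 and limma-voom), against 0.0% of all sites in each comparison; at an unadjusted p under 0.05 edgeR listed 706 isolated sites at 4 h and 506 at 2 h in either direction. Both shares are close to the background of the whole table and so do not set the isolated sites apart. The calls were most frequent in the weakest class, with 109 falls (11.5% of its tested members), 34 in the middle class (4.36%) and 22 in the strongest (3.62%). Over all tested sites, 195 of the 345 falls were in the weakest class, 88 in the middle and 62 in the strongest. The lean to weak sites is thus shared by the whole table. The classes use the mean over all 6 libraries, treated ones included, so a fall by itself moves a site toward the weakest class. This lean is therefore partly built in. These calls rest on the libraries: with the 4 h columns counted as 1 library, or without the DMSO library B, 0 isolated sites were called at 4 h and at 2 h. Without the 4 h column A or B the calls at 4 h were also 0. Without the 2 h library A there were 627 falls and 2 rises at 4 h and 933 falls at 2 h, and without the 2 h library B 624 falls and 2 rises at 4 h and 2 falls at 2 h. With only the 4 h and DMSO libraries in the fit there were 619 falls and 2 rises at 4 h. The counts of these alternative runs were not set against all tested sites.

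The same picture came from the counts themselves. A fitted fall of 4-fold or more was found at 199 isolated sites (8.51%) at 4 h and at 77 (3.29%) at 2 h, against 7.8% and 3.53% of all tested sites. The raw counts of the 4 h pair were below those of the DMSO pair, with no overlap, at 1897 isolated sites (81.1%), against 80.3% of all, and those of the 2 h pair at 1232 (52.7%), against 50.2%. The treated pair was above the DMSO pair, with no overlap, at 21 isolated sites (0.898%) at 4 h and 10 (0.428%) at 2 h, against 0.807% and 0.413% of all. The 4 h columns count as 1 sample, while the 2 h libraries differed widely. Over the isolated sites the 2 h totals were 82029 (A) and 38787 (B), and the lower DMSO total was 82380. The gap between 81.1% and 52.7% is therefore no measure of a greater loss at 4 h. No isolated site was called for 4 h against 2 h by edgeR.

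The largest raw falls at 4 h left only a few reads. At chr4:148932970-148933370, 239 kb from its neighbour, there were 9 and 3 reads at 2 h, 1 in each 4 h column, and 21 and 27 with DMSO. The raw log2 change at 4 h was −4.42 (SE 0.83, edgeR adjusted p = 0.000561). All treated counts lay below both DMSO counts, and the 4 h columns lay lowest. At chr7:608012-608412, which is 1.27 Mb from its neighbour, there were 15 and 5 reads at 2 h, 4 and 3 at 4 h, and 38 and 58 with DMSO (raw log2 change at 4 h of −3.73 with an SE of 0.80, edgeR adjusted p = 0.00163). At chr1:235344092-235344492 there were 23 and 14 reads at 2 h, 12 and 4 at 4 h, and 69 and 126 with DMSO. This site is in the strongest class and separated treated from DMSO libraries by the widest margin in reads of the 5.

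The other 2 of the 5 largest raw falls had mean DMSO counts of 42 and 35.5 reads, against an isolated median of 34. At chr13:104851434-104851834 there were 8 and 4 reads at 2 h, 6 and 1 at 4 h, and 27 and 57 with DMSO. At chr5:70865719-70866119 there were 9 and 3 reads at 2 h, 4 and 2 at 4 h, and 26 and 45 with DMSO. With the 4 h columns counted as 1 library, the raw log2 change ran from −4.42 to −3.35 over the 5 sites, and the calls ended. They also ended without the DMSO library B and without either 4 h column. A replicate block ended the call at all of them but chr4:148932970-148933370, where DESeq2 ended it. These calls therefore rest on the DMSO library B and on both 4 h columns taken as separate libraries.

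Counts were next scaled by TMM, so that a change shared by most sites is taken out and each site is read relative to the typical one: the median log2 change of all tested sites at 4 h was −1.08 in raw counts and 0.02 on this scale. On it the median isolated site had a log2 change of 0.00 at 4 h and −0.02 at 2 h. The isolated sites are 2338 of the 5575 tested, so the scaling itself largely holds their median near 0. In raw counts the isolated median at 4 h was −1.10, close to that of all tested sites. On this relative scale 158 isolated sites fell (6.76%) and 93 rose (3.98%) at 4 h, by edgeR at an adjusted p under 0.05, against 6.73% and 4.72% of all tested sites. At 2 h 92 fell (3.94%) and 47 rose (2.01%), against 4.07% and 2.49% of all. The falls are at the background of the table, and the rises are slightly under it. These calls take the 4 h columns as separate libraries. With the columns as 1 library 130 isolated sites fell and 56 rose at 4 h. Without the DMSO library B there were 106 calls in all at 4 h and 38 at 2 h, without the 4 h column A or B 107 or 83 at 4 h, and without the 2 h library A or B 73 or 82 at 2 h. The counts of these alternative runs were not set against all tested sites. In the main fit, rises made up 11.5% of the sites within 10 kb of another at 4 h and 3.04% of those at 10 to 100 kb, given as a description.

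The direction of these calls depends on the scale. Scaled on the 20 sites with the highest mean count, 281 isolated sites fell and 1 rose at 4 h, and 61 fell and 0 rose at 2 h. Scaled on totals in sites, 235 fell and 60 rose at 4 h, and 150 fell and 37 rose at 2 h. Scaled on the weakest 10% of sites, 80 fell and 56 rose at 4 h, and 26 fell and 26 rose at 2 h. By limma-voom under TMM 114 fell and 117 rose at 4 h, and 69 fell and 70 rose at 2 h. DESeq2 with its own size factors called 6 falls and 15 rises at 4 h, and 1 fall and 10 rises at 2 h. These counts were not set against all tested sites, so they do not show whether isolated sites differ from the rest.

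Taken as a share of the library's reads in sites, the 4 h pair lay wholly below the DMSO pair at 831 isolated sites (35.5%), against 34.8% of all tested sites, and wholly above at 404 (17.3%), against 19.0%. The 2 h pair lay wholly below at 780 (33.4%), against 32.8%, and wholly above at 322 (13.8%), against 15.3%.

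**Figure D4:**
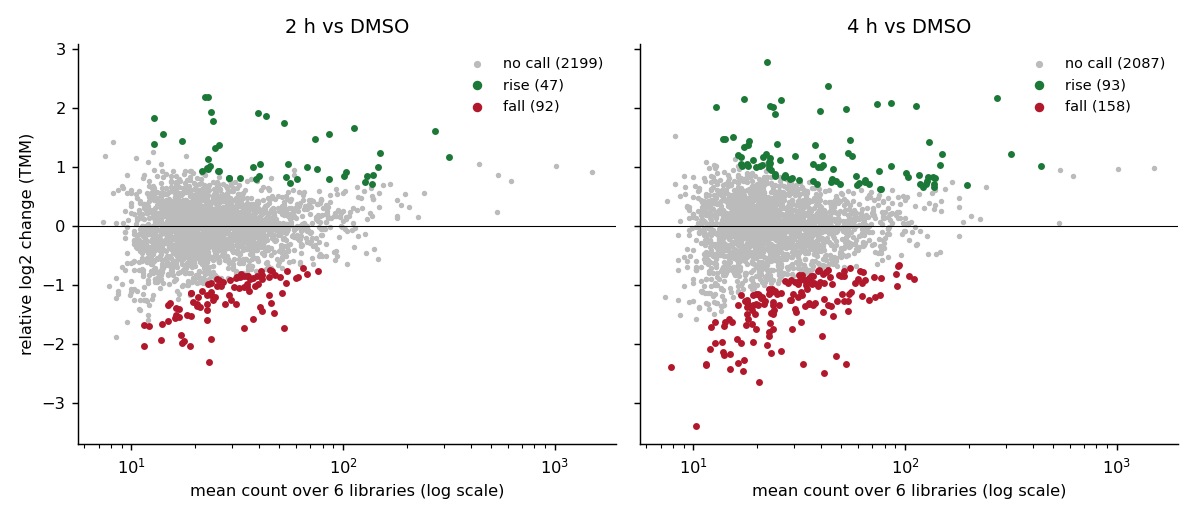
Relative (TMM-scaled) log2 change at 2 h (left) and 4 h (right) against the mean count over the 6 libraries (log scale), 1 point per tested isolated site; red points fell, green rose and grey had no call. At 4 h 158 sites fell and 93 rose, and above a mean count of 100 rises outnumber falls. That mean includes the treated libraries, so sites that kept reads reach it more easily. Scaled on the 20 highest sites, only 1 isolated site rose at 4 h.

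The largest relative falls at 4 h left few reads in the treated libraries. The 10 largest had at most 24 reads in any 2 h library and at most 15 in any 4 h column, against 14 to 169 in the DMSO libraries. The largest was again chr4:148932970-148933370, whose counts are given above (relative log2 change at 4 h of −3.38 with an SE of 0.745, edgeR adjusted p = 0.00216). This call ended in DESeq2, without the 4 h library B and with a minimum log2 change of 1. DESeq2 ended the call at 6 of the 10 sites, and 4 kept it. The smallest adjusted p of the 10 was at chr12:66998059-66998459, which kept its call at 4 h in every alternative run, with 23 and 16 reads at 2 h, 8 and 15 at 4 h, and 83 and 169 with DMSO (relative log2 change at 4 h of −2.32 with an SE of 0.278, edgeR adjusted p = 3.33e-07). Its treated counts all lay below both DMSO counts, and the fall at 2 h was also called (−1.71, SE 0.247, edgeR adjusted p = 1.59e-05).

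Several of these sites had lost fewer reads at 2 h than at 4 h. They were picked for their fall at 4 h, which by itself favours this order. At chr1:204896936-204897336 there were 24 and 18 reads at 2 h, 6 and 7 at 4 h, and 51 and 92 with DMSO (relative log2 change at 4 h of −2.33 with an SE of 0.335, edgeR adjusted p = 8.25e-06). The relative log2 change at 2 h was −0.81 (SE 0.249, edgeR adjusted p = 0.0436). Here the 3 groups did not overlap, with 2 h between 4 h and DMSO. At chr15:40942236-40942636 there were 2 and 5 reads at 2 h, 1 and 4 at 4 h, and 18 and 39 with DMSO. At chrX:38402645-38403045 there were 7 and 2 reads at 2 h, 1 and 4 at 4 h, and 24 and 31 with DMSO. At both sites the 2 h and 4 h counts overlapped, well below DMSO. At chrX:33201566-33201966 there were 7 and 2 reads at 2 h, 1 and 2 at 4 h, and 14 and 21 with DMSO, and the call at 4 h ended with the 4 h columns as 1 library, with the replicate block, in DESeq2 and without any 1 of the DMSO or 4 h libraries.

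Of the 10 largest relative falls at 2 h, 3 are among those at 4 h. The largest was chr7:103292378-103292778, with 7 and 5 reads at 2 h, 2 and 10 at 4 h, and 35 and 81 with DMSO (relative log2 change at 2 h of −2.30 with an SE of 0.384, edgeR adjusted p = 0.000132). Its treated counts all lay far below the lower DMSO count. DESeq2 ended the call at 9 of the 10 largest falls at 2 h, this site among them, and a minimum log2 change of 1 ended all 10. At chr10:63697970-63698370 there were 9 and 6 reads at 2 h, 9 and 9 at 4 h, and 37 and 73 with DMSO. At chr12:64613840-64614240 there were 6 and 5 reads at 2 h, 7 and 5 at 4 h, and 29 and 54 with DMSO. At both sites the 2 h and 4 h counts were nearly alike.

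Other sites, picked for their fall at 2 h, held more reads at 4 h. That choice by itself favours this order. At chr11:6322721-6323121, whose nearest neighbour is 2.06 Mb away, there were 17 and 6 reads at 2 h, 17 and 19 at 4 h, and 58 and 87 with DMSO. The relative log2 change was −1.71 at 2 h (SE 0.280, edgeR adjusted p = 0.000101) and −0.91 at 4 h (SE 0.252, edgeR adjusted p = 0.0152). At chr4:24435750-24436150 there were 9 and 2 reads at 2 h, 4 and 11 at 4 h, and 29 and 58 with DMSO. The times overlapped at both sites, and neither was called for 4 h against 2 h (edgeR, relative scale, adjusted p of 0.843 and 0.968). Of the remaining falls, chr3:126891957-126892357 had 3 and 8 reads at 2 h, 3 and 5 at 4 h, and 24 and 61 with DMSO. The site chr18:49104979-49105379 had 5 and 4 reads at 2 h, 3 and 4 at 4 h, and 27 and 40 with DMSO.

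The 2 times share their DMSO libraries, so falls seen at both are not independent of each other. Over the 158 isolated sites that fell at 4 h, pooled counts were 4501 and 1953 at 2 h, 2178 and 2215 at 4 h, and 7394 and 14060 with DMSO. Over the 93 that rose, pooled counts were 7298 and 3950 at 2 h, 5952 and 6015 at 4 h, and 4751 and 7133 with DMSO. The second set thus held about as many raw reads at 4 h as with DMSO, and 39 of its 93 sites had a raw log2 change above 0. Both sets were chosen by this contrast, so the 4 h and DMSO values describe the choice. The median distance to the nearest site was 236 kb over the falls, 259 kb over the rises and 254 kb over the isolated sites without a call.

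Among the relative rises, some isolated sites held more raw reads after treatment than with DMSO, although no raw rise was called. Whether the fusion binds at the rising sites, or whether they lie in repeated sequence or copies of mitochondrial DNA, was not tested. At chr13:110076342-110076742 there were 28 and 20 reads at 2 h, 37 and 28 at 4 h, and 9 and 11 with DMSO (relative log2 change at 4 h of 2.78 with an SE of 0.338, edgeR adjusted p = 4.05e-07). At chr18:45379553-45379953 there were 53 and 38 reads at 2 h, 59 and 60 at 4 h, and 15 and 34 with DMSO (relative log2 change at 4 h of 2.38 with an SE of 0.252, edgeR adjusted p = 3.40e-08). At both sites all 4 treated counts lay above both DMSO counts. Their raw log2 changes at 4 h were 1.69 and 1.28, with edgeR adjusted p of 0.121 and 0.229 in the raw comparison.

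Some of the rises were at stronger sites. At chr17:22020629-22021029 there were 384 and 174 reads at 2 h, 404 and 330 at 4 h, and 140 and 204 with DMSO. At chr5:93906389-93906789 there were 152 and 88 reads at 2 h, 167 and 119 at 4 h, and 59 and 89 with DMSO. At chr2:88124447-88124847 there were 121 and 55 reads at 2 h, 133 and 92 at 4 h, and 42 and 72 with DMSO. At each of the 3 the 4 h columns lay above both DMSO libraries, while the 2 h library B lay below the DMSO library B. The site chr17:22020629-22021029 was the only isolated rise at 4 h that kept its call when counts were scaled on the 20 highest sites.

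At chr4:12641892-12642292, 954 kb from its neighbour, there were 99 and 46 reads at 2 h, 97 and 100 at 4 h, and 37 and 63 with DMSO (relative log2 change at 4 h of 2.08 with an SE of 0.210, edgeR adjusted p = 1.92e-08). At chr4:129002620-129003020 there were 35 and 13 reads at 2 h, 35 and 37 at 4 h, and 14 and 21 with DMSO. The 4 h counts lay above both DMSO counts at both sites, while the 2 h library B lay below the DMSO library B. At chr1:567339-567739 there were 26 and 7 reads at 2 h, 28 and 20 at 4 h, and 7 and 16 with DMSO. At chr2:49456688-49457088 there were 37 and 25 reads at 2 h, 31 and 19 at 4 h, and 8 and 18 with DMSO. The weakest of the 10 was chr6:62284037-62284437, with 15 and 15 reads at 2 h, 16 and 15 at 4 h, and 9 and 7 with DMSO.

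The rises at 2 h added 4 sites to these. At chrX:125606513-125606913, one of the 5 most distant members with 3.46 Mb to its neighbour, there were 79 and 41 reads at 2 h, 73 and 54 at 4 h, and 32 and 36 with DMSO (relative log2 change at 2 h of 1.75 with an SE of 0.245, edgeR adjusted p = 1.30e-05). At chr3:96336818-96337218, with 2.28 Mb to its neighbour, there were 38 and 20 reads at 2 h, 28 and 27 at 4 h, and 11 and 18 with DMSO. All treated counts lay above both DMSO counts at both sites. At chr11:10529312-10529712 there were 75 and 24 reads at 2 h, 48 and 41 at 4 h, and 20 and 29 with DMSO. At chr17:19506190-19506590 there were 40 and 18 reads at 2 h, 30 and 26 at 4 h, and 15 and 17 with DMSO.

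Of the 5 most distant members, the other 4 had no relative call at either time. The most distant of all was chr15:26020390-26020790, 4.11 Mb from its neighbour, with 15 and 8 reads at 2 h, 8 and 11 at 4 h, and 14 and 16 with DMSO. At chr10:838753-839153, 3.73 Mb away, there were 12 and 3 reads at 2 h, 4 and 8 at 4 h, and 15 and 29 with DMSO. At chr1:247909742-247910142, the last site of its chromosome and 3.53 Mb from its neighbour, there were 57 and 22 reads at 2 h, 26 and 30 at 4 h, and 54 and 76 with DMSO. These sites had fewer reads in each 4 h column than in either DMSO library, by a few reads at the first. At chr8:13873672-13874072, 3.42 Mb away, there were 43 and 23 reads at 2 h, 28 and 22 at 4 h, and 32 and 66 with DMSO, and the 4 h counts were again the lower ones.

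**Figure D5:**
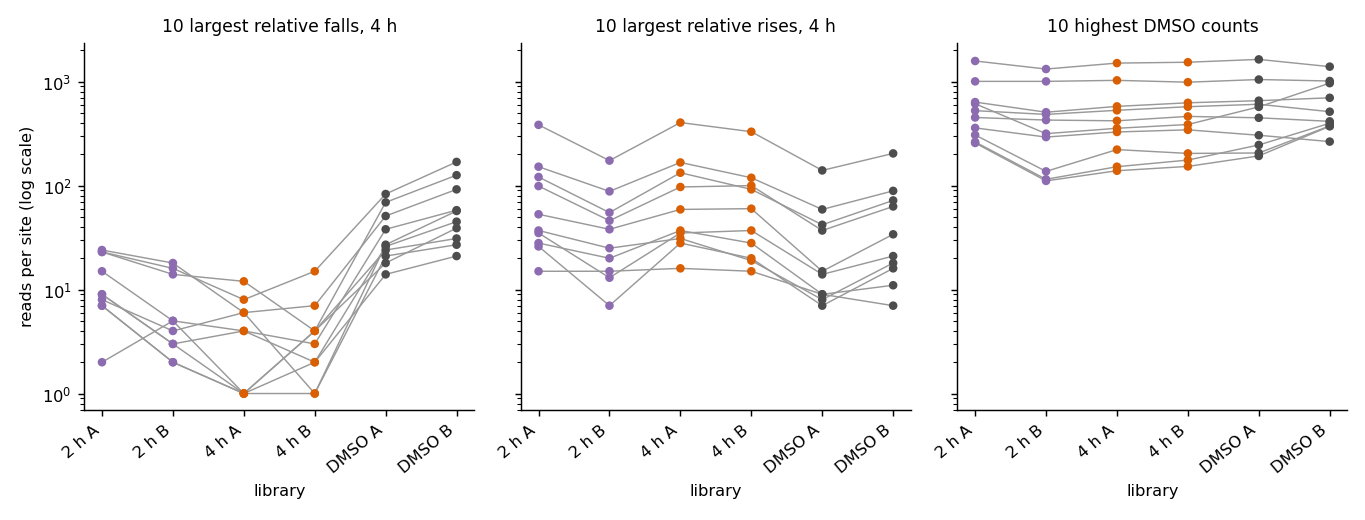
Raw reads per site (log scale) in the 2 h (purple), 4 h (orange) and DMSO (grey) libraries A and B at the 10 isolated sites with the largest relative falls at 4 h, the 10 with the largest relative rises and the 10 with the highest DMSO counts; lines join 1 site. The falls drop to between 1 and 15 reads at 4 h, the rises lie above DMSO at 4 h, and several of the highest sites are nearly level over the 6 libraries.

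The isolated sites with the most reads are given here in 2 sets, split by their raw change. At 6 of the 10 highest the raw log2 change at 4 h was within 0.3 of 0, a limit set after the values were seen. The highest was chr6:58778181-58778581, with 1580 and 1322 reads at 2 h, 1508 and 1537 at 4 h, and 1637 and 1394 with DMSO. The next was chr9:66971000-66971400, with 1006 and 1006 reads at 2 h, 1029 and 988 at 4 h, and 1048 and 1014 with DMSO. At both sites the treated and DMSO counts were nearly equal.

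Lower counts stayed level at the others of these 6. At chr21:9827046-9827446 there were 636 and 508 reads at 2 h, 578 and 626 at 4 h, and 656 and 699 with DMSO. At chr20:26189912-26190312 there were 526 and 484 reads at 2 h, 530 and 574 at 4 h, and 606 and 514 with DMSO. At chr1:156186244-156186644 there were 452 and 427 reads at 2 h, 420 and 463 at 4 h, and 449 and 415 with DMSO. The groups overlapped at the last 2, and at chr21:9827046-9827446 the treated counts all lay below both DMSO counts. At chr17:31149552-31149952, 1.17 Mb from its neighbour, there were 359 and 293 reads at 2 h, 328 and 344 at 4 h, and 305 and 265 with DMSO. Its 4 h columns lay above both DMSO libraries. On the relative scale it was a called rise at 4 h (edgeR adjusted p = 0.00718) and at 2 h (edgeR adjusted p = 0.0171). So was chr1:156186244-156186644 at 4 h (edgeR adjusted p = 0.0390), while the other level sites had no relative call. Whether the level sites lie in repeated sequence was not tested.

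At 3 of the other 4 the raw change at 4 h was close to the median of the isolated sites. At chr4:190200050-190200450 there were 613 and 316 reads at 2 h, 356 and 387 at 4 h, and 572 and 967 with DMSO (raw log2 change at 4 h of −1.05 with an SE of 0.280, edgeR adjusted p = 0.0127). The adjusted p was 0.644 with the 4 h columns as 1 library. At chr4:3831868-3832268 there were 263 and 115 reads at 2 h, 152 and 176 at 4 h, and 246 and 398 with DMSO. At chr1:1502812-1503212 there were 257 and 111 reads at 2 h, 139 and 153 at 4 h, and 193 and 372 with DMSO. Each of these 3 had fewer reads in both 4 h columns than in either DMSO library. At chr4:74316250-74316650 there were 307 and 137 reads at 2 h, 222 and 204 at 4 h, and 206 and 375 with DMSO, and the groups overlapped. Its raw log2 change at 4 h was −0.45, between the level sites and these 3.

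The 2 sets also differed in how they followed the controls. Pooled over the 6 level sites there were 4559 and 4040 reads at 2 h, 4393 and 4532 at 4 h, and 4701 and 4301 with DMSO, a DMSO B to A ratio of 0.915. Pooled over the other 4 there were 1440 and 679 reads at 2 h, 869 and 920 at 4 h, and 1217 and 2112 with DMSO, a ratio of 1.74. Over all isolated tested sites the DMSO B to A ratio was 1.71. In raw counts the level sites thus varied little with treatment and little between the DMSO libraries. The DMSO counts took part in the choice of the 6, so these values describe them and are no test.

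Without the 10 highest, the isolated sites held 75543 and 33810 reads at 2 h, 48087 and 49966 at 4 h, and 75779 and 133376 with DMSO. The pooled 4 h count was then 46.9% of the pooled DMSO count, against 49.1% with them. Of the 64 isolated sites with a mean count of at least 100, a limit also set after the values were seen, 2 fell and 20 rose on the relative scale at 4 h, against 6 and 64 of the 221 sites of that strength in the whole table. These 64 had a median raw log2 change of −0.65 at 4 h and −0.51 at 2 h, against −0.71 and −0.55 over the 221. The mean is over all 6 libraries, so sites that kept or gained reads pass this limit more easily. By the mean DMSO count alone, 158 isolated sites reached 100 reads.

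Isolated sites that border the widest stretch without a site on their chromosome had raw changes near those of the rest. These stretches ran from 2.71 Mb to 21.1 Mb, and 25 of the 46 sites beside them were isolated, 24 of them tested. Pooled over the 24 there were 733 and 356 reads at 2 h, 460 and 469 at 4 h, and 768 and 1225 with DMSO. In raw log2 terms their median change was −1.09 at 4 h and −0.80 at 2 h, against −1.10 and −0.96 at the other isolated sites. Within this set chr1:142538557-142538957, beside the widest stretch of 21.1 Mb, had 64 and 59 reads at 2 h, 58 and 50 at 4 h, and 78 and 44 with DMSO, with overlapping groups. At chr5:23132158-23132558, beside a stretch of 8.001 Mb, there were 12 and 8 reads at 2 h, 6 and 4 at 4 h, and 26 and 59 with DMSO. Both sites were chosen after their values were seen.

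The last comparison set 4 h against 2 h. No isolated site was called, by the edgeR test of raw counts (0, with 4 at an unadjusted p under 0.05) or the relative test (0, with 140 at an unadjusted p under 0.05), against 0.0% of all tested sites. DESeq2 also called 0, with 2 and 8 at an unadjusted p under 0.05, and limma-voom called 0, with 12 and 127. A fitted raw count at least 4-fold lower at 4 h than at 2 h was found at 1 isolated site, chr4:148932970-148933370 (0.0428%, against 0.0359% of all tested sites). At the median isolated site the raw log2 change of 4 h against 2 h was −0.17 (quartiles −0.41 and 0.08), the same as over all tested sites to 2 decimals, and 65.8% of them were lower at 4 h. The 2 h libraries A and B lay on either side of the 4 h columns at the median isolated site, with 24 and 11 reads at 2 h against 15 and 16 at 4 h.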

How the data were processed

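The deposited values are raw read counts per site made by the authors, without normalization, in 6 crosslinked libraries; the uncrosslinked DMSO sample was not analysed here. Per the submitters' processing notes the build was hg19 and the tools named, with no roles or settings, were DiffBind, DESeq2, deepTools, Genrich 0.6.1, Bowtie2 and Trimmomatic 0.32. A column is named by treatment and letter only, and no label links letters to replicate numbers. Since crosslinked DMSO is the one DMSO group with 2 samples, both DMSO columns were assigned to it. Coordinates are as in the file and may be off by 1 base. No hg19 genome or annotation was used here, so sites carry no gene names or sequences and the planned sequence features were not run.

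Sites were kept by filterByExpr (minimum count 10, minimum total 15), which left 5575 of 5782. All were fitted with edgeR 4.0.16 (R 4.3.3; quasi-likelihood test, treatment as the only term, 3 residual degrees of freedom, Benjamini-Hochberg adjustment over all tested sites), once with every library given the same size and once with TMM. The standard error is the log2 change over the square root of F. The common biological coefficient of variation came to 38.8% (equal sizes) and 11.6% (TMM). Intervals used scipy 1.17.1. A median count of 11 to 43 reads per isolated site limits precision.

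The text names the 10 strongest relative falls and rises at each time among called sites whose treated columns lay on 1 side of both DMSO columns as shares of each library's reads in sites (raw reads may overlap), the 10 highest DMSO counts, the 5 largest called raw falls at 4 h, the 5 most distant and those at the distance limit. Members, lists and alternatives (DESeq2 1.42.0, limma 3.58.1, scalings, filters, distances, left-out libraries) were chosen with earlier results of these data known.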

Additional observations from a re-analysis of the deposited data

How the results depend on the processing

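The number of calls among isolated sites changed with the libraries, the fit and the distance rule. The cause was not tested unless stated, and the counts under these alternatives were not set against all tested sites. The 165 raw calls at 4 h turned into 621 when the uncompared group was dropped from the fit, 0 with the 4 h columns as 1 library and 108 with gaps over 200 kb, and lay between 0 and 629 when any 1 library was dropped. For the 24 raw calls at 2 h the numbers were 12 with DESeq2, 74 with limma-voom, 0 without the uncompared group, 0 with the 4 h columns as 1 library, 40 with gaps over 50 kb and 13 with gaps over 200 kb, and 0 to 933 with 1 library dropped. The 251 relative calls at 4 h numbered 21 by DESeq2, 136 when scaled on the lowest 10% of sites, 16 with a minimum log2 change of 1 and 150 with gaps over 200 kb, and ranged from 83 without the 4 h library B to 292; without the DMSO library B they were 106 and without the 4 h library A 107. The 139 relative calls at 2 h numbered 11 by DESeq2, 61 when scaled on the 20 highest sites, 52 on the lowest 10%, 0 with the minimum change (44 at an unadjusted p under 0.05) and 82 with gaps over 200 kb, and ranged from 38 without the DMSO library B to 147; without the 2 h library A they were 73 and without B 82. Other distance limits change the number of members by construction, and so does a minimum change for the number of calls. The median relative log2 change at 4 h (0.00) became −1.03 scaled on the 20 highest sites, 0.084 on the lowest 10% and −0.13 on totals; at 2 h (−0.02) it became −0.89, 0.11 and −0.13. The raw median at 2 h (−0.96) ranged from −1.66 to −0.50 leaving out 1 library. Among the 10 highest sites, the raw change at 4 h took either sign over the alternatives at 4: −0.10 to 0.13 at chr6:58778181-58778581, −0.13 to 0.10 at chr20:26189912-26190312, −0.04 to 0.10 at chr1:156186244-156186644 and −0.82 to 0.05 at chr4:74316250-74316650, none of them called on raw counts.

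A replicate block by column letter left 1 raw call at 4 h and 0 at 2 h, with 176 relative calls at 4 h and 63 at 2 h. The A minus B differences of 2 h and DMSO leaned in opposite directions, with a correlation of −0.187 over all tested sites and −0.149 over the isolated ones. For 4 h with DMSO it was 0.0126 and −0.0101, and for 4 h with 2 h −0.0056 and 0.0133. Libraries of one letter thus showed no shared deviation in the same direction. With the 2 h letters crossed, chosen after seeing the data, 558 raw and 227 relative calls were made at 2 h.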
